A study of Mus musculus with 6 samples.

Results

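The transcription factors that carry the oligodendrocyte lineage from precursor to myelinating cell were followed through single-nucleus RNA-sequencing (snRNA-seq) of neonatal mouse brain after intraventricular injection of lysophosphatidic acid (LPA), a bioactive blood lipid used to induce post-hemorrhagic hydrocephalus. The genes were chosen by symbol: Sox5, Sox6, Sox8, Sox10, Olig1, Olig2, Nkx2-2, Myrf, Tcf7l2 and Zfp488, which are 10 of the 32285 genes in the count matrices, and all 10 were found. C57BL/6 S-56 mice were injected on P7 into the right lateral ventricle with 5 µl of LPA or of vehicle (0.01% BSA), and brains without olfactory bulbs and cerebellum were taken on P15. Both groups therefore share the surgery, the BSA and the age, and they differ in LPA. Each of the 3 LPA and 3 vehicle libraries holds nuclei that were sorted as negative for NeuN, an antigen of most mature neurons, and counted with the 10x Genomics 3′ v3 kit.

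Oligodendrocyte precursors divide, leave the cycle as committed precursors, become newly formed oligodendrocytes and then make and keep myelin. Olig2, Olig1 and Nkx2-2 specify and pattern the lineage, and Sox10 keeps its identity and opens myelin genes together with Myrf, which appears as the cell differentiates. Sox5 and Sox6, SoxD proteins without an activation domain of their own, hold back differentiation, whereas Tcf7l2 and Zfp488 act as the cell begins to mature. At this age the mouse forebrain holds every step of the sequence at once, since myelination is under way.

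After filtering, 57443 nuclei remained, 7579 to 11745 per library, from libraries of 48852970 to 65688644 UMIs (unique molecular identifiers, each a counted RNA molecule). Of these, 13036 fell in the oligodendrocyte lineage, and 13000 could be placed in 7 stages by sub-clusters made without the 10 factors and without marker genes. Male and female libraries occur in both groups, with 1 male in LPA and 2 in vehicle by Xist and chromosome Y reads. Pairs of libraries shared 16 to 39 cell barcodes. Neurons that passed the NeuN gate, astrocytes, immune, ependymal and vascular cells served as the other cell types.

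Stages were named by the gate genes of the lineage and by genes of dividing cells, so the levels of these genes describe the labels and do not test them. Pdgfra, the receptor of the precursor mitogen PDGF, averaged 1068 CPM (the gene's UMIs scaled to a fixed total for the stage) in non-cycling and 969 CPM in cycling precursors and at most 89.0 CPM in later stages. Top2a, a gene of dividing cells, reached 358 CPM in cycling precursors against 3.48 CPM in non-cycling ones. Gpr17 peaked in committed precursors at 926 CPM and Enpp6 in newly formed oligodendrocytes at 1188 CPM. Casr and Cemip2 peaked in myelin-forming oligodendrocytes at 363 and 2311 CPM, and Hapln2 in mature oligodendrocytes at 401 CPM. A 7th group passed none of these gates but led in Opalin, a myelin membrane gene, at 404 CPM, and was kept apart as Opalin-rich oligodendrocytes. When each nucleus was instead placed by its own marker counts, 65.53% stayed in the stage of their sub-cluster, so the borders between stages are soft.

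The stages were not equally represented in the groups. Non-cycling precursors made up 26.0% ± 1.62 (SD, n = 3) of the staged lineage in LPA and 15.8% ± 2.26 in vehicle brains, and committed precursors 8.45% ± 0.51 and 5.04% ± 0.60. Cycling precursors came to 2.83% ± 0.53 and 1.84% ± 0.29. At the other end, Opalin-rich oligodendrocytes were 16.3% ± 1.20 of the lineage in LPA against 24.4% ± 1.39 in vehicle, and mature oligodendrocytes 16.3% ± 2.80 against 22.8% ± 1.63. In these 5 stages no library of one group reached into the range of the other, and the two-sided exact permutation test gave p = 0.1, the smallest that 3 against 3 allows. Newly formed (18.6% and 17.0%) and myelin-forming oligodendrocytes (11.4% and 13.1%) overlapped between groups (exact permutation p = 0.2 for each). When each nucleus was placed by its own markers instead, cycling precursors (2.13 to 2.91% in LPA, 1.75 to 2.76% in vehicle) and mature oligodendrocytes (9.04 to 12.2% and 11.1 to 16.2%) overlapped between groups, with differences of 0.23 and -3.13 percentage points (exact permutation p = 0.6 and 0.2), and the other 3 stayed apart. Shares of nuclei cannot tell more precursors from fewer mature nuclei.

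**Figure D1:**
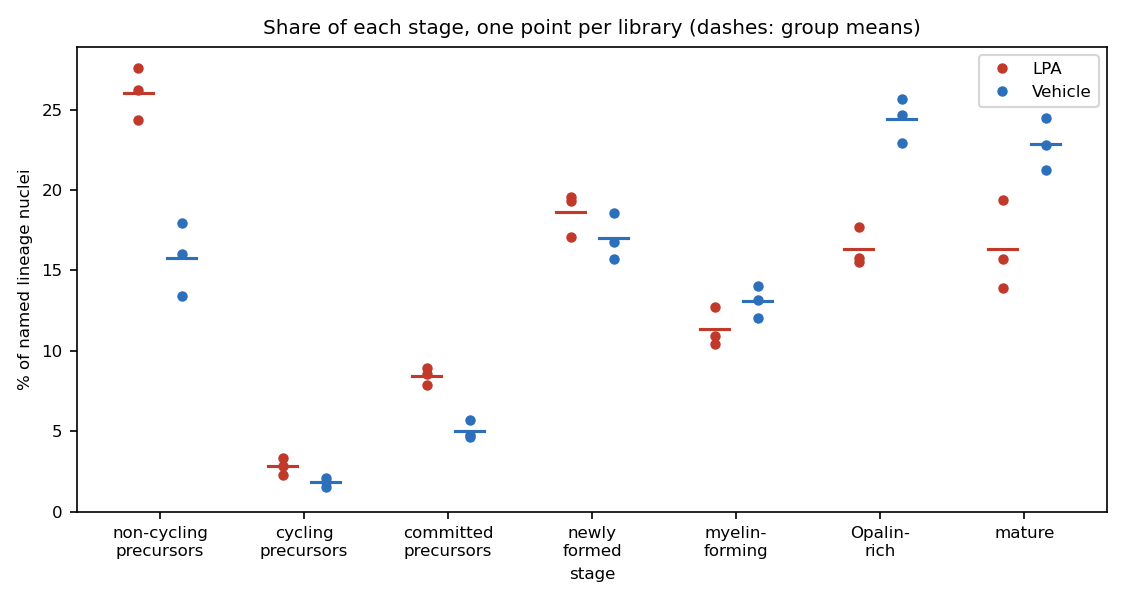
Share of each stage among staged lineage nuclei, in percent, with 1 point per library and a bar at the mean of each group. LPA libraries lie above vehicle libraries in non-cycling precursors (24.4 to 27.6% against 13.4 to 17.9%) and below them in Opalin-rich oligodendrocytes (15.5 to 17.7% against 22.9 to 25.7%).

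The 2 SoxD genes marked the early lineage and then fell away. Sox5 averaged 1435 ± 67.0 CPM (SD, n = 6 libraries) in non-cycling, 1321 ± 118 CPM in cycling and 1089 ± 109 CPM in committed precursors, and 137 ± 30.5 CPM in newly formed oligodendrocytes. From there it stood at 42.9, 35.0 and 34.1 CPM in myelin-forming, Opalin-rich and mature oligodendrocytes, 3 stages whose library ranges overlap, so that its highest stage held 42.1 times the level of its lowest. Only the precursor states at the top also overlapped. Sox5 was thus a gene of all precursors, dividing or not.

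Sox6, its close relative, ran 1 stage later. Its highest level was in committed precursors (3449.7 ± 247 CPM), above non-cycling (2514 ± 49.9 CPM) and cycling precursors (2343 ± 188 CPM), and it still stood at 1397 ± 195 CPM in newly formed oligodendrocytes. It then fell to 32.2 to 36.1 CPM in the 3 later stages, 107 times below its peak. In committed precursors between 99.1 and 100.0% of nuclei of a library held a Sox6 UMI, against 9.2 to 20.7% of immune nuclei, a cell type not known for Sox6, whose median depth was 1245 to 2023 UMIs against 2774 to 3909.

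Among the factors that specify the lineage, Nkx2-2 varied most with stage. This homeodomain protein, which represses Pdgfra as precursors leave the cycle, averaged 302 ± 37.8 CPM in committed precursors, 70.0 and 69.4 CPM in the precursors before them and 56.2 CPM in the newly formed oligodendrocytes after them. Later stages held 4.73 to 13.9 CPM. The committed libraries did not overlap those of any other stage, with a fold of 63.9 between highest and lowest stage.

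The basic helix-loop-helix factors Olig1 and Olig2 changed far less with stage. Olig2, required for the lineage to form, averaged 115, 106 and 113 CPM in the 3 precursor states, which overlap. It stood at 65.0 CPM in newly formed oligodendrocytes and, without overlap, at 78.5 CPM in myelin-forming ones, and was lowest in mature oligodendrocytes at 32.2 CPM. Its highest stage was 3.56 times its lowest. Olig1, its neighbour on chromosome 16 and a factor in maturation and repair, had a dip in the middle: 192 CPM in non-cycling precursors, 67.9 CPM in newly formed, 142 CPM in myelin-forming and 159 CPM in Opalin-rich oligodendrocytes, with a fold of 2.82. Newly formed oligodendrocytes were lowest for Olig1, but their range overlapped that of mature oligodendrocytes (98.9 CPM).

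Of the SoxE genes, Sox10 was present throughout. It averaged 395 CPM in non-cycling precursors, 504 CPM in committed precursors, 682 ± 38.3 CPM in newly formed, 561 CPM in myelin-forming and 310.2 CPM in mature oligodendrocytes. Its 2.25-fold range over stages was the narrowest of the 10 genes. Sox8, which backs up Sox10, peaked in committed precursors (306 ± 42.4 CPM, apart from every other stage) and was lowest in myelin-forming oligodendrocytes (64.6 CPM), 4.74 times below, with overlapping neighbours in between.

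The factors of differentiation rose in turn. Zfp488, a zinc finger co-repressor of precursors that begin to mature, averaged 27.8 CPM in non-cycling precursors, 61.7 CPM in committed precursors and 89.8 CPM in newly formed oligodendrocytes, the last 2 overlapping, and 31.1 CPM in mature ones. Tcf7l2, an effector of Wnt signalling that the lineage uses when it begins to myelinate, had the steepest profile. It averaged 260.0 ± 27.1 CPM in non-cycling precursors, 849 ± 72.4 CPM in committed precursors, 4497 ± 301 CPM in newly formed, 1756 ± 96.7 CPM in myelin-forming, 100.1 CPM in Opalin-rich and 37.9 CPM in mature oligodendrocytes, a 119-fold span in which only the precursor states without commitment overlap. Myrf, the membrane-bound factor that switches on myelin genes, came up with Tcf7l2 but stayed. It stood at 20.5 CPM in non-cycling and 14.95 CPM in cycling precursors, 99.3 ± 15.1 CPM in committed precursors, 254 ± 26.3 CPM in newly formed, 268 ± 32.2 CPM in myelin-forming and 181 ± 16.0 CPM in mature oligodendrocytes, a 17.9-fold range.

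**Figure D2:**
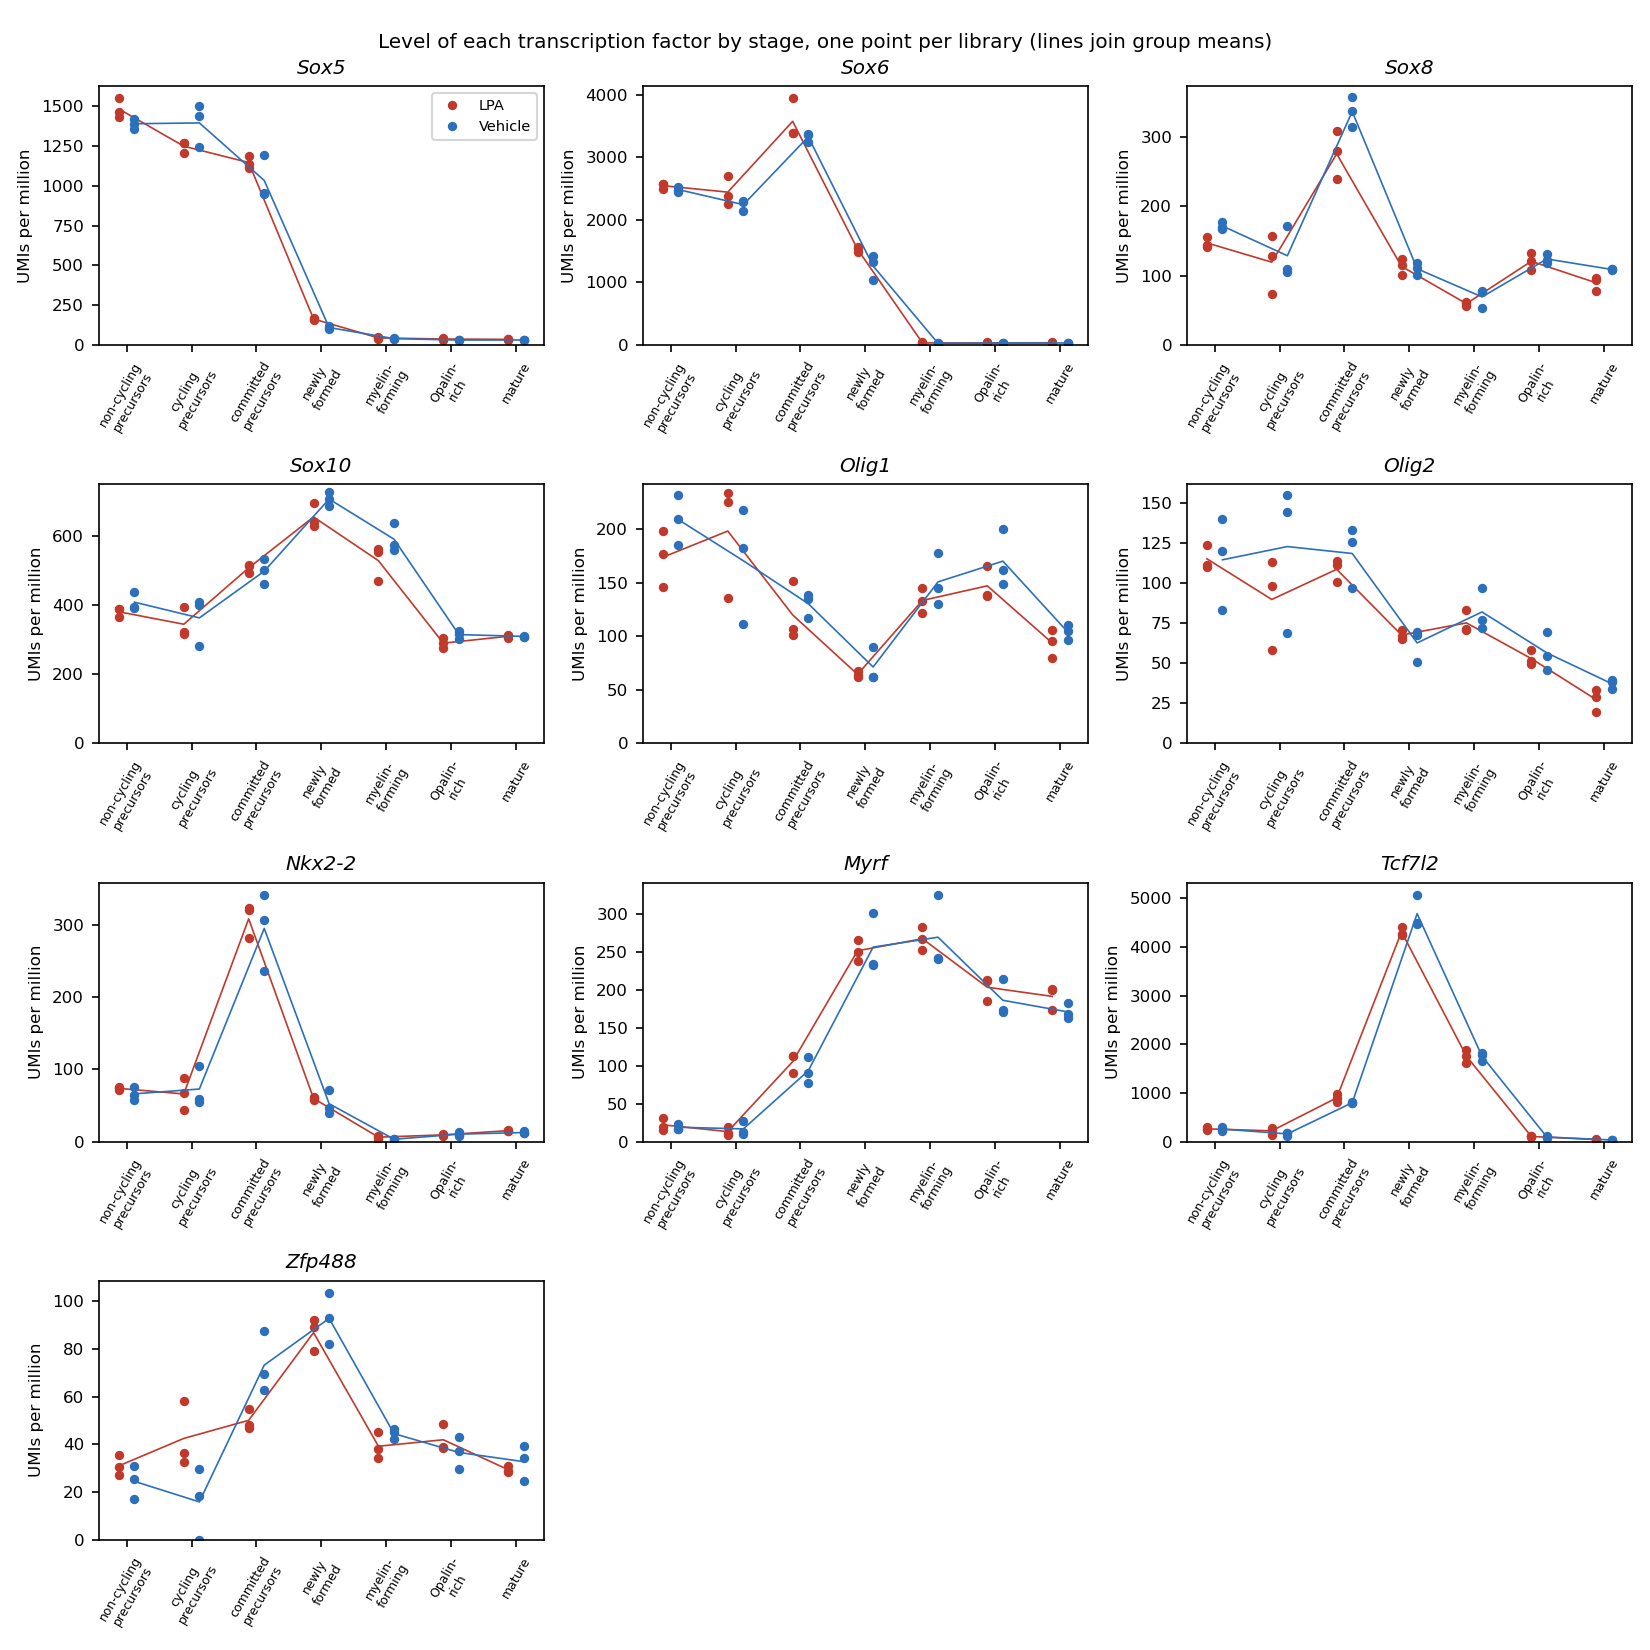
Level of each gene by stage, in CPM on a linear axis that starts at 0, with 1 point per library (LPA red, vehicle blue). Sox5 drops between committed precursors and newly formed oligodendrocytes, Sox6 reaches its low level from myelin-forming oligodendrocytes on, Nkx2-2 and Sox8 peak in committed precursors, and Tcf7l2 peaks in newly formed oligodendrocytes, in libraries of both groups.

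Newly formed oligodendrocytes were not uniform, and their 3 sub-clusters laid out the switch at a finer grain. In the first, with the most Gpr17, Sox6 averaged 2734 CPM, Nkx2-2 124 CPM and Tcf7l2 2950.2 CPM. In the second Sox6 was 1021 CPM and Tcf7l2 5276 CPM. In the third, with the most Casr and Cemip2, Sox6 was down to 67.1 CPM and Nkx2-2 to 5.05 CPM, with Tcf7l2 at 5650.0 CPM. Sox5 went from 250.0 to 60.1 CPM over the same 3 groups and Myrf from 198 to 299 CPM. The 2 myelin-forming sub-clusters differed most in Tcf7l2, at 3131 CPM where Casr and Cemip2 were highest and 700.0 CPM where Opalin was higher.

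Over the 42 points of 7 stages in 6 libraries, Pearson's r of log2 levels was 0.93 for Sox5 with Sox6, 0.92 for Sox6 with Nkx2-2 and 0.94 for Sox10 with Tcf7l2. The most opposed pair was Sox5 with Myrf, at r = -0.82. Points of one library share its depth and those of one stage share its nuclei, so these values describe the profiles and carry no test. Over 72 points that add the 5 other cell types, and among 12748 genes, the nearest profile to Sox5 was that of Pknox2 (r = 0.954). For Myrf it was Plxnb3 (0.969), for Sox10 Ankrd28 (0.953), for Tcf7l2 Etv6 (0.931) and for Sox8 Col11a2 (0.925). Olig1 and Olig2 shared Papss1 (0.909 and 0.885), Nkx2-2 was nearest to Has2 (0.872) and Zfp488 to Ankrd28 (0.906). Sox6 was nearest to Gm45025 (0.963), an antisense gene that lies across Sox6 itself.

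Outside the lineage the 10 genes divided sharply. Of all UMIs in kept nuclei, the lineage held 69.9% of those for Myrf, 68.4% for Sox10 and 68.4% for Zfp488, 53.1 to 57.6% for Sox8, Olig1, Olig2, Nkx2-2 and Tcf7l2, 38.6% for Sox6 and 19.9% for Sox5. Kept nuclei include unnamed clusters, some of them led by oligodendrocyte genes, so the rest does not all lie in other cell types. In other cell types Sox10 averaged 20.3 CPM (astrocytes) to 54.4 CPM (vascular cells), and Zfp488 2.25 CPM (astrocytes) to 6.11 CPM (vascular cells). Whether such low levels come from free RNA or from mixed droplets was not tested, and they were not read as expression.

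Sox5, Sox6 and Tcf7l2, by contrast, were high in several other cell types. Sox5 averaged 674 ± 32.9 CPM in astrocytes, 567 ± 49.3 CPM in ependymal cells, 432 ± 64.5 CPM in vascular cells and 284 ± 17.8 CPM in neurons. Within the vascular cells it was concentrated in pericytes, the contractile mural cells of capillaries, at 1966 ± 203 CPM, which is above its highest lineage stage, against 210.4 CPM in endothelial and 251 CPM in meningeal cells. Sox6 averaged 868 ± 56.7 CPM in astrocytes and 611 ± 77.9 CPM in ependymal cells. Among neurons it reached 1161 ± 113 CPM in a cluster led by Lhx6, a factor of interneurons from the medial ganglionic eminence, in which Sox6 has a known role. Tcf7l2 averaged 502 ± 20.1 CPM in astrocytes, 452 ± 31.0 CPM in vascular cells and 357 ± 55.6 CPM in immune cells, and the range of non-cycling precursors lies below those of astrocytes and vascular cells and touches that of immune cells.

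Sox8 in astrocytes stood between these patterns. It averaged 41.6 ± 6.98 CPM there, with no overlap with the 4 remaining cell types (13.5 to 19.8 CPM). Astrocytes held 1382 Sox8 UMIs for 704 of Sox10, a ratio of 1.96, where the lineage held 7536 for 27255, a ratio of 0.28. Astrocytic Olig1 (36.1 CPM) gave a ratio to Sox10 of 1.69 against 0.30, and Myrf 0.47 against 0.41. The cluster led by Agt and Slc6a11 had the highest astrocytic Sox8 (54.9 CPM), Olig1 (50.4 CPM), Olig2 (28.5 CPM) and Nkx2-2 (25.6 CPM).

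**Figure D3:**
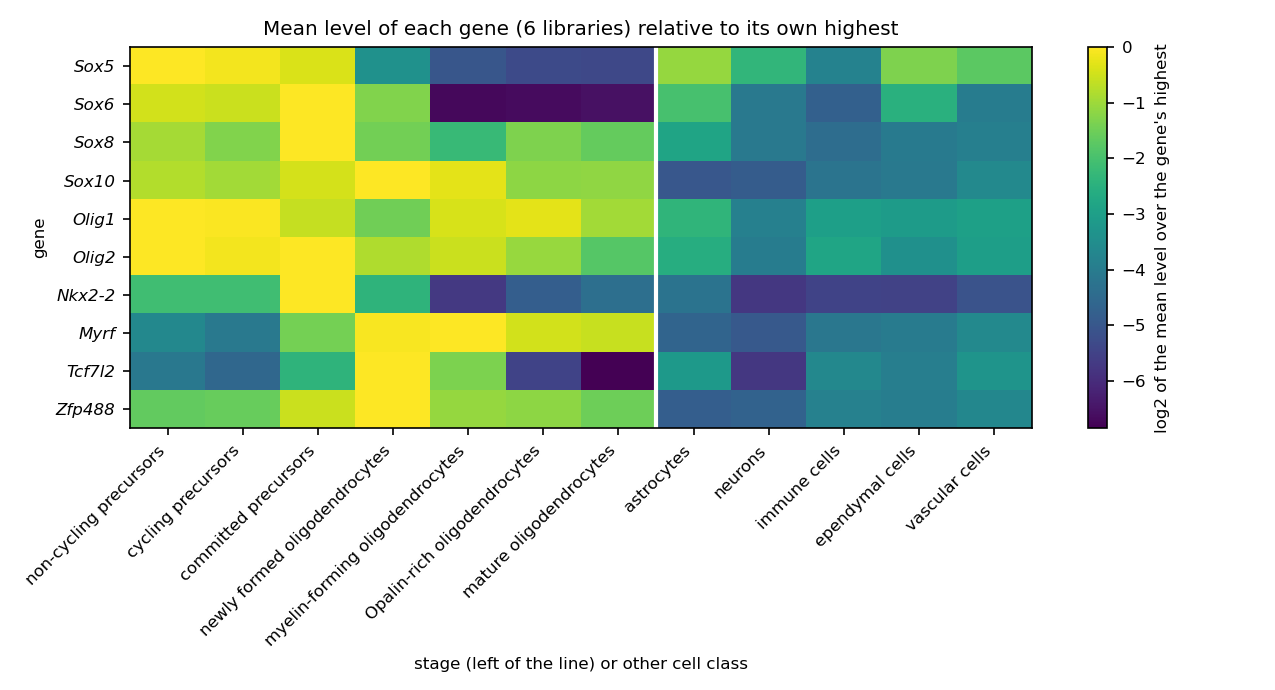
Mean level of each gene over 6 libraries in the 7 stages and the 5 other cell types, as log2 of the ratio to that gene's own highest group (1 added to both levels), so that 0 is the highest group and colors compare groups within a gene only. Sox10, Myrf and Zfp488 are well below their highest stage in all 5 other cell types, and Sox5 and Sox6 come closest to theirs in astrocytes.

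Within the stages, LPA and vehicle brains differed by the test in 1 factor at 1 stage, Sox5 in newly formed oligodendrocytes. The test was edgeR's quasi-likelihood test on UMIs summed per library, with Benjamini-Hochberg adjustment over all genes tested in the stage, and calls needed both an adjusted p below 0.05 and a log2 fold-change of 0.25 or more in either direction. Over all genes the same rule called 0.154% in non-cycling, 0.0% in cycling and 0.0407% in committed precursors. It called 0.486% in newly formed, 0.0732% in myelin-forming, 0.478% in Opalin-rich and 0.559% in mature oligodendrocytes. In non-cycling, cycling and committed precursors and in myelin-forming, Opalin-rich and mature oligodendrocytes 0 factors were called by edgeR and 0 by DESeq2. At unadjusted p under 0.05 edgeR gave 2, 0, 2, 0, 0 and 4 factors in these stages and DESeq2 0, 0, 0, 0, 0 and 2. Over all genes edgeR gave 828 of 11056, 217 of 4041, 468 of 7367, 665 of 9569, 1011 of 10876 and 996 of 10742 in the same order. DESeq2 gave 291, 64, 116, 251, 472 and 441 of these genes. Myrf and Zfp488 in cycling precursors and Nkx2-2 in myelin-forming oligodendrocytes had too few UMIs to be tested.

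In newly formed oligodendrocytes Sox5 stood at 169, 159 and 164 in the LPA libraries and 99.9, 108 and 123 in the vehicle libraries (CPM). All LPA libraries were above all vehicle libraries. The log2 fold-change was 0.56 ± 0.09 (SE), adjusted p = 0.0022. DESeq2 called the same gene and no other factor. Markers of the whole lineage, summed over 16 genes, were lower in this stage in LPA (21405 to 22419 CPM) than in vehicle libraries (23023 to 23444 CPM), with 8 of the 16 higher in LPA. Vascular markers were also lower in LPA (70.1 to 85.2 against 97.0 to 116.6 CPM, 4 of 18 higher, 1 at 0), and immune markers overlapped (113 to 135 against 79.5 to 119 CPM) with 14 of 14 higher. Nuclei of this stage held a median of 5080 to 5444 UMIs in LPA and 3957 to 4805 UMIs in vehicle libraries. LPA libraries were the deeper ones without overlap in each of the 7 stages and in astrocytes, immune, ependymal and vascular cells, and overlapped vehicle libraries in neurons and the lineage as a whole. The part of these markers and of depth in the Sox5 value was not tested.

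The stage also differed inside. Its earliest sub-cluster, where Sox5 is highest, supplied 42.5% of the stage's UMIs in LPA and 34.1% in vehicle brains, and the latest 26.6% and 32.8%. With the 3 sub-clusters held at a fixed mix in every library, the log2 difference of Sox5 went from 0.57 to 0.40, and LPA libraries (147 to 159 CPM) stayed above vehicle libraries (113 to 124 CPM). Fitted apart, Sox5 gave log2 fold-changes of 0.38 (unadjusted p = 0.0012, adjusted p = 0.18, edgeR), 0.51 (adjusted p = 0.87) and 0.30 (adjusted p = 0.94) in the 3 sub-clusters. No factor was called in any of the 13 sub-clusters of the lineage. The share of all genes called in these fits is not given, so that count is not read as a result about the factors. When stages were drawn nucleus by nucleus, Sox5 in newly formed oligodendrocytes was 0.44 higher on the log2 scale with adjusted p = 0.43 (edgeR). In that setting 12 of 9647 genes were called in the stage.

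Sox6 in the same stage stood at 1568, 1544 and 1481 in the LPA libraries and 1039, 1333 and 1417 in the vehicle libraries (CPM), again without overlap, but did not pass (log2 fold-change 0.27 ± 0.09, unadjusted p = 0.0045, adjusted p = 0.21, edgeR). At the fixed mix of sub-clusters its difference went from 0.29 to 0.07 and the groups overlapped. Tcf7l2 at its peak stood at 4246, 4416 and 4268 in the LPA libraries and 5072, 4481 and 4498 in the vehicle libraries (CPM). The LPA libraries lay below the vehicle libraries without overlap, by -0.13 ± 0.05 (SE), unadjusted p = 0.026, adjusted p = 0.42 on the log2 scale in edgeR, and the gene was not called.

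Several uncalled values separated the groups, mostly by small amounts. Full separation of 3 against 3 libraries by itself has an exact permutation p of 0.1, and the share of all genes that separated was not counted. Sox8 was 141 to 156 CPM in LPA and 167 to 178 CPM in vehicle libraries in non-cycling precursors, 239 to 308 CPM in LPA and 314 to 358 CPM in vehicle libraries in committed precursors and 78.2 to 97.1 CPM in LPA and 108 to 109.6 CPM in vehicle libraries in mature oligodendrocytes, below vehicle in each (log2 fold-changes -0.20, -0.29 and -0.26). Zfp488 in committed precursors was 47.0 to 55.0 CPM in LPA and 62.8 to 87.4 CPM in vehicle libraries, a log2 fold-change of -0.52 ± 0.22 (SE), unadjusted p = 0.024, adjusted p = 0.78 in edgeR, on 179 UMIs over 6 libraries. Olig2 in mature oligodendrocytes was 19.6 to 33.2 CPM in LPA and 34.0 to 39.4 CPM in vehicle libraries (log2 fold-change -0.44 ± 0.17, unadjusted p = 0.015, adjusted p = 0.38, edgeR). Tcf7l2 in mature oligodendrocytes, long past its peak, was 37.0 to 47.1 CPM in LPA and 31.0 to 35.5 CPM in vehicle libraries (log2 fold-change 0.35 ± 0.14, unadjusted p = 0.023, adjusted p = 0.43, edgeR). None of these is a difference at the threshold, and each is given as measured.

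Sox10 and Myrf were not called in any stage where they were tested. The fitted log2 fold-change of Sox10 ran from -0.13 in myelin-forming oligodendrocytes to 0.04 in committed precursors, and in mature oligodendrocytes, where its SE was smallest, it was 0.02 ± 0.06 (SE), adjusted p = 0.96 in edgeR. Myrf ran from -0.04 in newly formed oligodendrocytes to 0.31 in non-cycling precursors, where 187 UMIs were counted and the SE was 0.26. In mature oligodendrocytes Myrf was 174 to 200.5 CPM in LPA and 162 to 182 CPM in vehicle libraries, which overlap (log2 fold-change 0.18 ± 0.07, unadjusted p = 0.022, adjusted p = 0.43, edgeR). Sox6 had a positive fold-change in each of the 7 stages, from 0.04 to 0.28, and Sox5 in 6 of 7, with -0.16 in cycling precursors. The same libraries stand behind each stage, so the signs are not independent of one another.

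**Figure D4:**
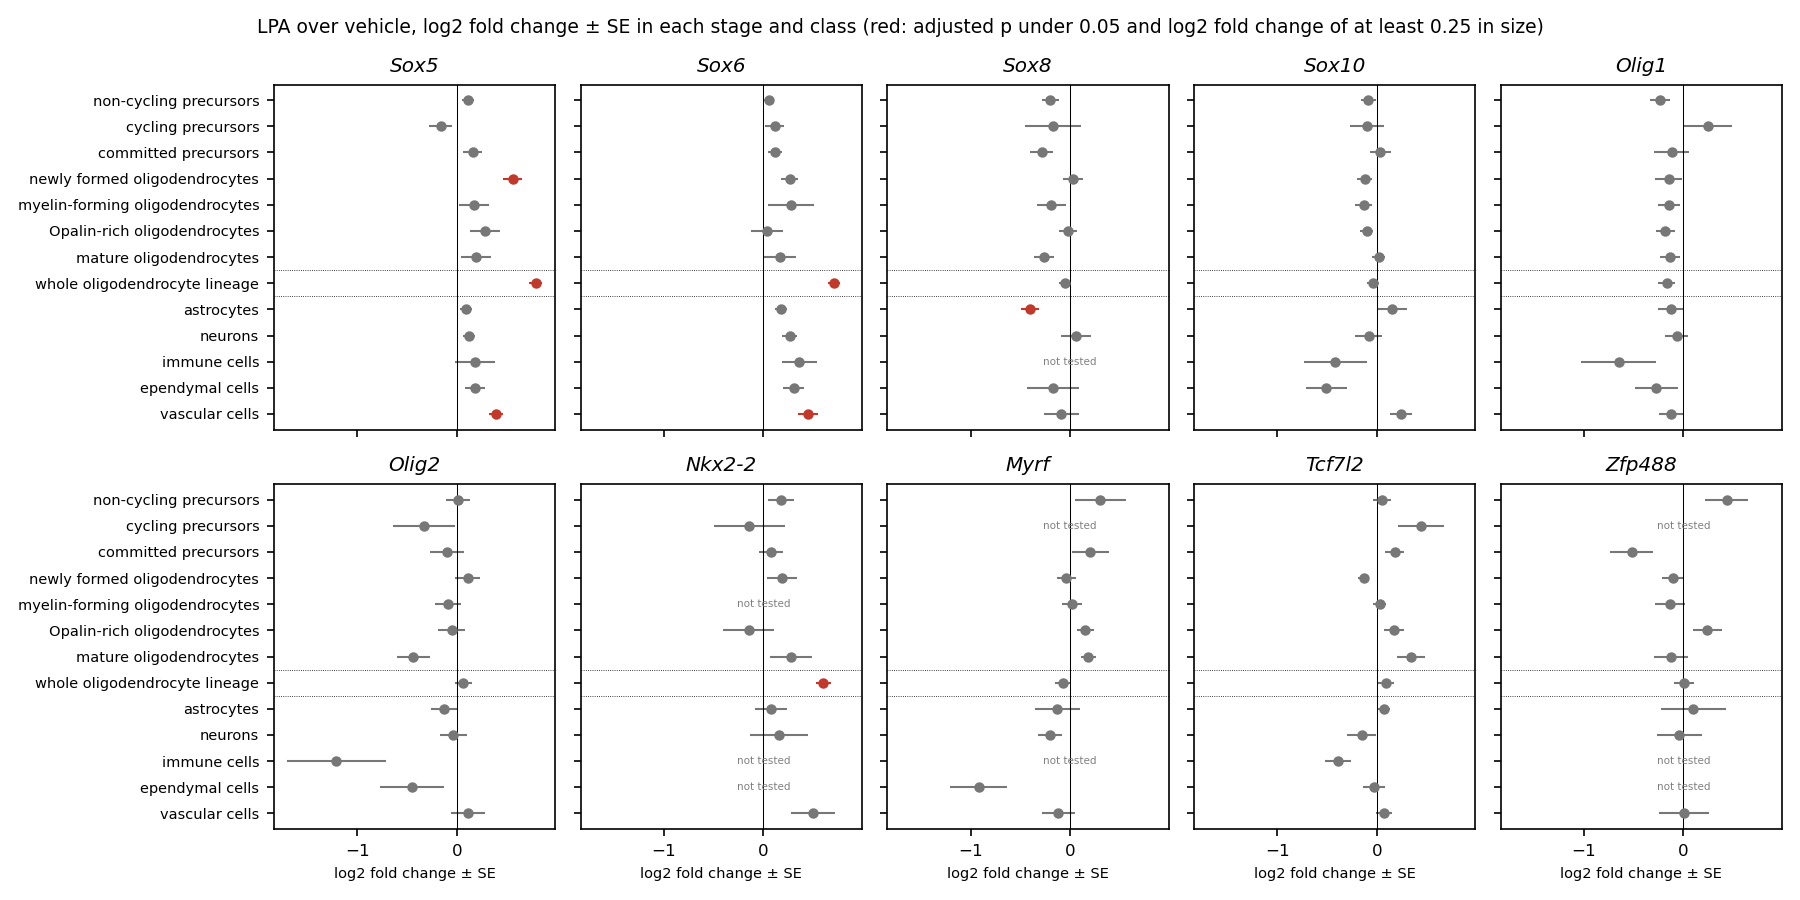
Log2 fold-change of LPA over vehicle with its SE for each gene (1 panel each) in the 7 stages, the whole lineage and 5 other cell types, from edgeR, with red marks for called values. The called values are Sox5 in newly formed oligodendrocytes (0.56), Sox5, Sox6 and Nkx2-2 in the lineage sum (0.79, 0.71 and 0.60), Sox8 in astrocytes (-0.41) and Sox5 and Sox6 in vascular cells (0.39 and 0.45).

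Whether the LPA effect differed between stages was tested in 1 fit of all stage sums. Sox5 (adjusted p = 0.041) and Tcf7l2 (adjusted p = 0.034) passed, by edgeR's F test over the stage by treatment terms, and 1.01% of all genes tested did. For Sox5 the log2 fold-changes of the stages ran from -0.16 in cycling precursors to 0.56 in newly formed oligodendrocytes. For Tcf7l2 they ran from -0.13 in newly formed oligodendrocytes, where it is highest, to 0.45 in cycling precursors, where 240 UMIs were counted. With 1 library left out, Sox5 passed in none of the 6 fits (adjusted p = 0.062 to 0.50), and Tcf7l2 passed without LPA 3 or Vehicle 2 but not without LPA 1, LPA 2, Vehicle 1 or Vehicle 3 (adjusted p = 0.18 to 0.51).

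Summed over the whole lineage, 3 factors were higher in LPA libraries, against 11.9% of all genes called in that sum in either direction. Sox5 stood at 442, 441 and 377 in the LPA libraries and 244, 251 and 223 in the vehicle libraries (CPM). Sox6 stood at 1041, 1118 and 1011 in the LPA libraries and 629, 672 and 612 in the vehicle libraries (CPM). Nkx2-2 stood at 54.1, 52.8 and 48.7 in the LPA libraries and 35.5, 31.4 and 34.5 in the vehicle libraries (CPM). For each the groups were well apart, with log2 fold-changes of 0.79 ± 0.07 (SE), adjusted p = 9.9e-06 for Sox5, 0.71 ± 0.06 (SE), adjusted p = 9.9e-06 for Sox6 and 0.60 ± 0.08 (SE), adjusted p = 8.3e-05 for Nkx2-2 (edgeR). All 3 were high in precursors and near their lowest level in late stages. Olig1, Olig2, Sox8, Sox10, Myrf, Tcf7l2 and Zfp488 had log2 fold-changes between -0.17 and 0.09 and were not called.

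A sum over stages depends on their mix, and the mix differed between the groups. Non-cycling precursors supplied 17.8% of the lineage UMIs in LPA and 10.2% in vehicle brains, committed precursors 6.39% and 3.57%, and Opalin-rich oligodendrocytes 19.9% and 28.0%. With the 7 stages held at a fixed mix in every library, the log2 difference went from 0.81 to 0.13 for Sox5, from 0.73 to 0.13 for Sox6 and from 0.60 to 0.12 for Nkx2-2. The groups still did not overlap at the fixed mix for Sox5 (335 to 352 against 302 to 323 CPM) and Sox6 (868 to 895 against 762 to 833 CPM), and Nkx2-2 was at its border, with 43.593 CPM in the lowest LPA library and 43.587 CPM in the highest vehicle library. Sox8 and Sox10 came apart in the other direction at the fixed mix, by -0.15 and -0.09. The fixed-mix values carry no test, and the part of the stage mix in the lineage-sum calls was not tested.

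In astrocytes 1 factor was called, where 8.13% of all genes were. Sox8 stood at 35.4, 39.0 and 32.2 in the LPA libraries and 46.6, 48.8 and 47.4 in the vehicle libraries (CPM). Every LPA library was below every vehicle library, with a log2 fold-change of -0.41 ± 0.09 (SE), adjusted p = 0.008 in edgeR. Oligodendrocyte markers in astrocytes overlapped between groups (1347 to 1517 CPM in LPA, 1503 to 1982 CPM in vehicle, 8 of 16 markers higher in LPA and none at 0), and 7 of 19 tested targets of Sox10 or Myrf were called lower there. Whether such RNA has a part in the Sox8 value was not tested, and the log2 fold-change of Sox10 in astrocytes was 0.15. A Gfap-rich cluster led by Myoc supplied 25.5% of astrocyte UMIs in LPA and 9.19% in vehicle brains. At a fixed mix of the 3 astrocyte clusters Sox8 was still 0.32 lower on the log2 scale and the groups did not overlap. Ependymal markers were also higher in LPA astrocytes (220 to 247 against 128 to 186 CPM, 12 of 14 higher), and their part in these values was not tested.

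Vascular cells had 2 factors called, both higher, where 6.23% of all genes were called. Sox5 stood at 491, 483 and 494 in the LPA libraries and 368, 359 and 394 in the vehicle libraries (CPM), a log2 fold-change of 0.39 ± 0.07 (SE), adjusted p = 0.0058 in edgeR. Sox6 stood at 285, 231 and 241 in the LPA libraries and 206, 187 and 164 in the vehicle libraries (CPM), a log2 fold-change of 0.45 ± 0.10 (SE), adjusted p = 0.016 in edgeR. Both separated the groups. Pericytes, the Sox5-rich subtype, supplied 13.4% of vascular UMIs in LPA and 8.48% in vehicle brains, endothelial cells 36.2% and 20.2%, and meningeal cells 50.4% and 71.3%. At a fixed mix of the 3 the differences were 0.13 for Sox5 and 0.27 for Sox6, with no overlap in either. Immune markers were higher in LPA vascular cells (712 to 816 against 501 to 571 CPM, 13 of 14 higher, none at 0), and their part was not tested.

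**Figure D5:**
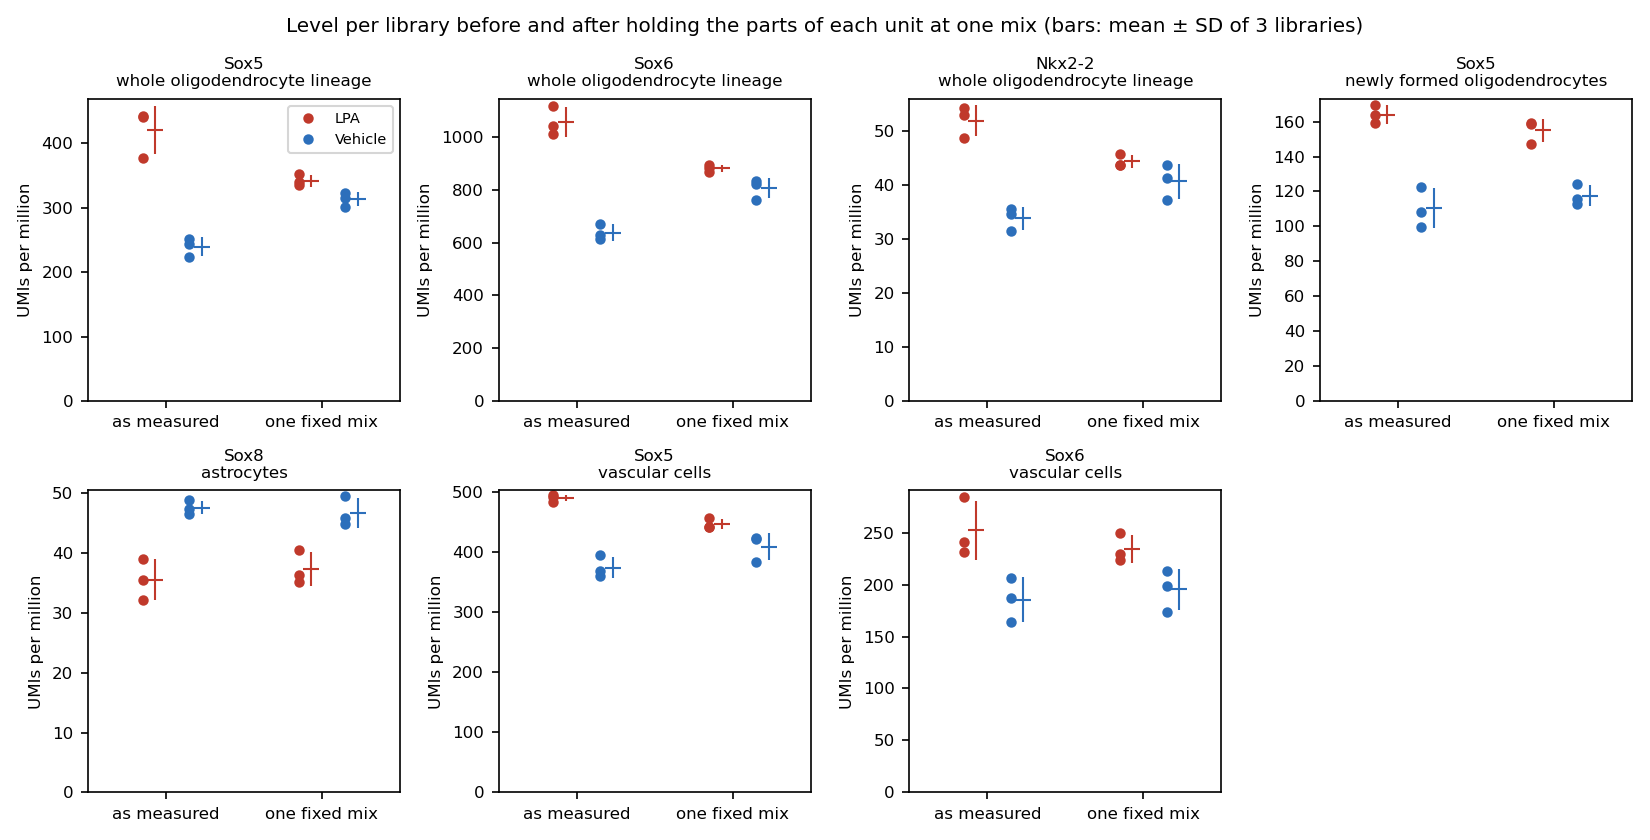
Level in CPM of each called factor, with 1 point per library and a bar at mean ± SD (n = 3), as measured and with the parts of the lineage, stage or cell type held at a fixed mix. The gap between LPA (red) and vehicle (blue) narrows for Sox5, Sox6 and Nkx2-2 in the lineage (log2 0.81 to 0.13, 0.73 to 0.13 and 0.60 to 0.12), and is 0.40 for Sox5 in newly formed oligodendrocytes, -0.32 for Sox8 in astrocytes, and 0.13 and 0.27 for Sox5 and Sox6 in vascular cells at the fixed mix.

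Fitted apart, 0 factors were called in pericytes (0.31% of all genes), endothelial cells (0.0%) and meningeal cells (0.507%) by edgeR, and at unadjusted p under 0.05 there was 1 in each. These were Sox5 in pericytes (0.19 ± 0.09, unadjusted p = 0.045, adjusted p = 0.62), Sox6 in endothelial cells (0.49 ± 0.15, unadjusted p = 0.006, adjusted p = 0.69) and Tcf7l2 in meningeal cells (0.17 ± 0.08, unadjusted p = 0.046, adjusted p = 0.51). In endothelial cells Sox6 stood at 462, 345 and 312 in the LPA libraries and 296, 260.0 and 239.8 in the vehicle libraries (CPM), without overlap. Of the 11358 genes tested in endothelial cells 668 had an unadjusted p under 0.05 (edgeR). No such count of all genes is given for pericytes and meningeal cells, so these unadjusted values are given as measured. DESeq2 was not run on the subtypes. The vascular call of Sox6 was lost without LPA 1, Vehicle 2 or Vehicle 3.

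Immune cells (8.88% of genes called), ependymal cells (3.44%) and neurons (0.0826%) had 0 factors called by edgeR and by DESeq2, with 3, 3 and 1 at unadjusted p under 0.05 in edgeR and 2, 3 and 1 in DESeq2. The shares in brackets are of adjusted calls, and no share of all genes is given for the unadjusted counts. Of the 10 factors 6 could be tested in immune and 8 in ependymal cells. Tcf7l2 in immune cells was 292 to 363 CPM in LPA and 379 to 435 CPM in vehicle libraries (log2 fold-change -0.39 ± 0.13, unadjusted p = 0.005, adjusted p = 0.054, edgeR). Myrf in ependymal cells was 7.20 to 14.1 CPM in LPA and 18.2 to 26.6 CPM in vehicle libraries (log2 fold-change -0.92 ± 0.28, unadjusted p = 0.0044, adjusted p = 0.086, edgeR). Oligodendrocyte markers were lower in LPA libraries in both cell types, at 1990 to 2325 against 2701 to 3859 CPM in immune and 1795 to 2247 against 3123 to 3837 CPM in ependymal cells. Sox6 had a positive fold-change in each of the 5 other cell types, from 0.17 in astrocytes to 0.45 in vascular cells, with the groups apart in all 5. These 5 values come from the same libraries and are not independent, and the share of all genes that separated was not counted.

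Genes that work with these factors were followed as 4 lists in the same fits. In the stages, 5 calls were made among them, all lower in LPA. Mobp, a myelin protein gene, was lower in non-cycling precursors (-0.78 ± 0.10, adjusted p = 7.6e-05) and newly formed oligodendrocytes (-0.42 ± 0.09, adjusted p = 0.021), and Trf, the iron carrier transferrin, in newly formed oligodendrocytes (-0.58 ± 0.12, adjusted p = 0.022). Daam2, a Wnt pathway gene, was lower in Opalin-rich oligodendrocytes (-0.41 ± 0.08, adjusted p = 0.018), and Klf9, a zinc finger factor induced by thyroid and steroid hormones, in mature oligodendrocytes (-0.47 ± 0.10, adjusted p = 0.017). All are edgeR log2 fold-changes with their SE. Of the 17 genes called in non-cycling precursors 16 were lower in LPA and 1 was higher. Whether free RNA or mixed droplets have a part in the Mobp and Trf values was not tested.

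Of the 20 genes known as targets of Sox10 or Myrf, 17 to 20 were tested in non-cycling precursors, newly formed, myelin-forming, Opalin-rich and mature oligodendrocytes. None was called higher, 1 was called lower in non-cycling precursors and 2 in newly formed oligodendrocytes. Their median log2 fold-change was -0.39 in non-cycling precursors and -0.19 in newly formed oligodendrocytes, where the median of all genes was -0.0037 and -0.0056. In cycling precursors 10 were tested (median -0.083) and in committed precursors 14 (median 0.008, 6 of 14 below 0), with 0 called in either. In myelin-forming, Opalin-rich and mature oligodendrocytes, the stages that make these transcripts, it was -0.015, -0.028 and -0.0025. In the lineage sum, where 11.9% of all genes were called, 13 of 20 were lower and 0 higher, with a median of -0.31 against -0.0059 for all genes. In cells that do not make myelin, 13 of 19 tested were lower in ependymal cells (median -0.88, all genes -0.015, 3.44% of all genes called), 7 of 16 in immune cells (median -0.69, all genes -0.021, 8.88% called) and 7 of 19 in astrocytes (median -0.38, all genes -0.009, 8.13% called). In vascular cells 1 of 19 was lower (median -0.11, 6.23% of all genes called), and in neurons 0 of 20 were called (median -0.40, 0.0826% called). Whether free RNA or mixed droplets have a part in the values of these targets, in the stages or in other cell types, was not tested.

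Of 16 early progenitor regulators, 3 to 12 were tested per stage and 0 were called in any. In the lineage sum (11.9% of all genes called in either direction) 4 of 14 were higher and 0 lower (median 0.38), namely Hes1, a Notch effector (0.76 ± 0.18, adjusted p = 0.012), Id4, an inhibitor of helix-loop-helix factors (0.57 ± 0.18, adjusted p = 0.045), Etv4 (0.62 ± 0.10, adjusted p = 0.00072) and Etv5 (0.59 ± 0.10, adjusted p = 0.0012), the last pair being effectors of growth factor signalling. Of 30 other differentiation regulators 16 to 29 were tested per stage with Klf9 as the only call. In the lineage sum 2 of 30 were higher, Myt1 (0.77 ± 0.08, adjusted p = 1.2e-05) and Thrb (0.49 ± 0.08, adjusted p = 0.00067), and 4 were lower, 6 of 30 in all beside the 11.9% of all genes. Of 16 Wnt and beta-catenin genes, partners and targets of Tcf7l2, 7 to 11 were tested per stage with Daam2 as the only call. In astrocytes (8.13% of all genes called) 3 of 14 were higher, Tcf7l1 (0.41 ± 0.07, adjusted p = 0.0005), Nkd1 (0.68 ± 0.12, adjusted p = 0.0014) and Axin2 (0.40 ± 0.08, adjusted p = 0.0052), and in vascular cells (6.23% called) 3 of 14 were, Lef1, Nkd1 and Daam2. These names in other cell types and in the sum were picked after their values were seen.

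The genes lie on 8 chromosomes of GRCm38 (mm10), by GENCODE M21. Sox5 spans chr6:143828425-144781977 and Sox6 chr7:115470872-116038796, both on the minus strand, 953.6 and 567.9 kb long. Tcf7l2 spans chr19:55741820-55933654 on the plus strand (191.8 kb) and Myrf chr19:10208272-10240748 on the minus strand (32.5 kb). The others are short: Sox8 at chr17:25565892-25570686, Sox10 at chr15:79154908-79165240, Nkx2-2 at chr2:147177546-147194243 and Zfp488 at chr14:33967070-33978764 on the minus strand, and Olig2 at chr16:91225457-91228677 and Olig1 at chr16:91269772-91271933 on the plus strand. Intronic reads were counted, which gives long genes more UMIs, so levels are compared between stages and groups of nuclei and not between genes. Sox5, Sox6, Sox8, Olig1 and Nkx2-2 overlap genes on the opposite strand, and Sox5 and Tcf7l2 also hold a gene on their own strand within them.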

How the data were processed

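Single-nucleus libraries from 3 LPA-injected and 3 vehicle-injected mice were analysed, grouped by their labels. The authors deposited filtered matrices of raw UMI counts per gene and nucleus, made with Cell Ranger 4.0.0 on a pre-mRNA reference of mm10 that counts intronic reads. The members and lists were chosen with earlier results of these data known.

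Nuclei were kept if they had 300 or more genes, no more than 1% mitochondrial UMIs, and a UMI total below an upper limit set per library at the third quartile plus 1.5 interquartile ranges. They were clustered with scanpy 1.11.5 and leidenalg 0.10.2 (3000 variable genes, 40 components, 30 neighbors, resolution 1), leaving out the 10 factors, marker and listed genes. Lineage nuclei were clustered again on 2000 variable genes, 20 components and 20 neighbors. Names mean marker-like clusters and were rebuilt here, and mixed clusters stayed unnamed. Scrublet called 12.3% to 15.4% of nuclei, which were left out only in an alternative.

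Levels are counts summed per library and stage, divided by their total (CPM). The median UMIs per nucleus in a stage ranged over libraries from 2525 to 2990 (vehicle) and 3276 to 3590 (LPA) in non-cycling precursors up to 4619 to 5513 and 6612 to 6874 in myelin-forming oligodendrocytes. Counts were tested with edgeR 4.0.16 (TMM, default filter, quasi-likelihood test, Benjamini-Hochberg over the genes tested), with DESeq2 1.42.0 as an alternative, and shares with exact permutation tests (scipy 1.17.1). The labels name replicate brains and give no batch or date. On simulated counts with 200 changed genes at the depth of newly formed oligodendrocytes (10486 genes), 145 of the 200 were called in the right direction, and 95 of 200 at the depth of cycling precursors (4041 genes). The changed genes had a mean fitted log2 fold-change of 1.00 and 1.02 in the direction set, larger than most differences of the factors. The simulation gave every gene the same dispersion, and its calls used the adjusted p without the fold-change limit. How many genes would be called at the fold-changes and library spread measured for the 10 factors was not tested. Named genes are the 10 factors, listed genes called in a stage, the genes nearest to each factor in profile and clusters of other cell types where a factor was highest. No sequences are shown.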

Additional observations from a re-analysis of the deposited data

Results flagged for a closer look

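The LPA effect on 2 factors differed between stages in the test of the difference itself, edgeR's quasi-likelihood F test over stage by treatment terms with Benjamini-Hochberg adjustment. Sox5 had adjusted p = 0.0406, with log2 fold-changes of -0.16 in cycling precursors, 0.12 in non-cycling precursors and 0.56 in newly formed oligodendrocytes. Tcf7l2 had adjusted p = 0.0340, with -0.13 in newly formed, 0.03 in myelin-forming and 0.35 in mature oligodendrocytes. Sox5 lost its call in 10 of 12 alternatives (adjusted p = 0.014 to 0.50) and Tcf7l2 in 5 of 12 (adjusted p = 0.0010 to 0.71). With stages drawn by each nucleus's own markers Sox5 (adjusted p = 0.021) and Sox6 (adjusted p = 7.9e-05) passed and Tcf7l2 did not (adjusted p = 0.71). Stage sums of a library share that library, and the cause of these differences was not tested.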

How the results depend on the processing

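The lineage-sum calls of Sox5, Sox6 and Nkx2-2, the astrocytic call of Sox8 and the vascular call of Sox5 held in all 13 alternative tests run for each (DESeq2, RLE factors, no filter, sex, Scrublet, no mitochondrial limit, replicate block and each library left out), and Sox6 in vascular cells in 9 of 13. With stages drawn by each nucleus's own markers, cycling precursors had 1 factor called (Sox6), newly formed oligodendrocytes 0 and mature oligodendrocytes 2 (Sox5 and Sox6). Over all genes this setting called 28 of 4589, 12 of 9647 and 159 of 9727 in the same order. The main setting called 0 of 4041, 51 of 10486 and 60 of 10742 genes. The difference in the share of newly formed oligodendrocytes turned to -0.594 percentage points (exact permutation p = 0.7). Without the filter on low counts, newly formed oligodendrocytes had 2 factors called (Sox5 and Sox6, where 138 of 20934 genes were called) and ependymal cells 1 (Myrf). With sex as a covariate ependymal cells had 1 (Myrf), and without the mitochondrial limit vascular cells had 1 (Sox5). Calls that differed between stages fell to 1 without the filter, with Scrublet calls left out, without the mitochondrial limit and at resolution 2. The cause was not tested.

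With 1 library left out, the number of factors called ranged from 0 to 1 in immune cells (Tcf7l2 without LPA 1), 0 to 1 in ependymal cells (Sox10 without Vehicle 1), 1 to 2 in vascular cells and 0 to 1 between stages, and stayed at 1 in newly formed oligodendrocytes. Differences in share ranged from 9.07 to 11.3 percentage points for non-cycling precursors and from -8.82 to -7.45 for Opalin-rich oligodendrocytes. The replicate block called 1 factor in newly formed oligodendrocytes and 3 in the lineage sum and changed no count of calls. Deviations of same-numbered libraries correlated at 0.461, 0.649 and -0.437 over 6743 genes, so the numbers were not taken as pairs. Across the groups, libraries of the same sex correlated at 0.461 to 0.649 and those of opposite sex at -0.726 to -0.375. Sex was a covariate in an alternative only.

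The Opalin-rich stage, fixed mixes, and fits of sub-clusters and vascular subtypes were added after seeing the data. Without the mitochondrial limit a sub-cluster of 483 nuclei led by Rmi2, Dtl and Top2a formed, but none was named cycling precursors. Names there followed the stage that most nuclei of a sub-cluster held with the limit, so that alternative has no value for cycling precursors. Cycling precursors, with 29 to 77 nuclei per library, are the least precise stage.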
